A study of Mus musculus with 4 samples.

Results

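Endothelial transcription factors were examined in the RNA-seq profiles of Lewis lung carcinoma (LLC) tumors expressing chemerin or not. The 10 genes Erg, Fli1, Ets1, Sox7, Sox17, Sox18, Tal1, Lyl1, Gata2 and Klf2 were given by name as transcription factors of endothelial identity, and all of them were found among the 47729 genes of the table. LLC is a lung carcinoma line of C57BL/6 mice, and its cells were injected under the skin of the back of syngeneic C57BL/6 mice. The LLC group carried cells that the labels call wild type, although the study also made controls with the empty vector. The LLC-Chem group carried cells transfected with a pEFIN plasmid for murine chemerin ending at residue 157, a form the study describes as bioactive without further clipping. Tumors were taken 5 days after the graft, and each group consisted of 2 pools of 3 tumors each. The study collected individual clones after selection, so clone and chemerin cannot be told apart in these groups, nor, if the controls were untransfected, can transfection and selection. The host strain was the same in every pool, so that only the grafted carcinoma cells differed between groups by the labels. The comparison of LLC-Chem with LLC asked how the program of endothelial regulators stood in tumors that made chemerin.

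Endothelial identity is held by a small network of factors that bind each other's genes and the genes of junctions, receptors and vessel wall proteins. ETS factors such as Erg and Fli1 occupy many endothelial enhancers, SOXF factors (Sox7, Sox17 and Sox18) act in arterial and lymphatic fate, and the bHLH factors Tal1 and Lyl1 work with GATA and LIM-only partners in endothelial and blood cells. Klf2 is induced by laminar flow and keeps the endothelium quiescent. Several of these genes are also used outside vessels, Fli1 and Lyl1 in blood cells, Gata2 in mast cells and progenitors, Ets1 in lymphocytes and invasive cells, and Klf2 in lymphocytes and macrophages.

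Because these factors are known to bind the genes of one another, the promoters of 4 members are shown, with the short words that their own families recognize in capitals. The windows run from 250 bases before to 50 bases after a RefSeq transcript start on GRCm38.p6, and each is printed 5′ to 3′ on the strand of its gene. RefSeq windows were matched for 5 of the 10 members (Erg, Tal1, Lyl1, Gata2 and Klf2), with 9 windows in all.
Erg, chr16:95459299-95459598, minus strand: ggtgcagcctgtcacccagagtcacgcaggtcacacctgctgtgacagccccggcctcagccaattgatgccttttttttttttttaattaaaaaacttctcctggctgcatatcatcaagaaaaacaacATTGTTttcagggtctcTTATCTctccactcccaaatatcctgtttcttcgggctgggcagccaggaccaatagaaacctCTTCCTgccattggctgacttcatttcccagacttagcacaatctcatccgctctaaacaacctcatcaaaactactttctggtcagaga
Tal1, chr4:115056176-115056475, plus strand: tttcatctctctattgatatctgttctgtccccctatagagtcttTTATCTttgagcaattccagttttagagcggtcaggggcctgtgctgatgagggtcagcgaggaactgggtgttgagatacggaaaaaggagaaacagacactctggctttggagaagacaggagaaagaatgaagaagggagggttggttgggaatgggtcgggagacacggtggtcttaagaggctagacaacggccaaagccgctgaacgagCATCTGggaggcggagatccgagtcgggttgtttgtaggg
Lyl1, chr8:84701207-84701506, plus strand: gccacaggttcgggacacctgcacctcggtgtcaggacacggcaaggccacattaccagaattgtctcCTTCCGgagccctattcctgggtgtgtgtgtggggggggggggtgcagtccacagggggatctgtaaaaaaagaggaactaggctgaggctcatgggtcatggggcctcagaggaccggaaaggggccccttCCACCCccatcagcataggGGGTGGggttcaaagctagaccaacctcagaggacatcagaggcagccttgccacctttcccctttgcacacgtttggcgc
Klf2, chr8:72318812-72319111, plus strand: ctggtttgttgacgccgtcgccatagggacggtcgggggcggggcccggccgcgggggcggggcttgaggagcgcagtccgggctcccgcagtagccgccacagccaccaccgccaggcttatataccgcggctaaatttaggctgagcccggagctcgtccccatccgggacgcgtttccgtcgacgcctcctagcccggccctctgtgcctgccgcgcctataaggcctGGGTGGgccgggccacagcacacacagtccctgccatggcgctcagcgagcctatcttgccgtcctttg
Words were searched on both strands as AGGAAG or CGGAAG for ETS, AGATAA or TGATAA for GATA factors, AACAAT for SOX, CCACCC for KLF, and CAGCTG or CAGATG for the E-box of bHLH factors, and no word of one family contains that of another. This window of Erg held a SOX word at -120 from the transcript start, a GATA word at -103 and an ETS word at -40. The Tal1 window held a GATA word at -205 and an E-box at 11. In Lyl1 an ETS word lay at -182 and KLF words at -50 and -31, and the Klf2 window held a KLF word at -19. One of the 2 Gata2 windows held an E-box at 18, and the other windows of Erg, Tal1 and Gata2 held none of these words. Among 32851 windows of all genes, 46.5% held an ETS word, 18.6% a GATA word, 10.7% a SOX word, 31.5% a KLF word and 30.6% an E-box. The matches describe letters only, and binding was not measured.

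Expression was given as RPM, the reads of a gene scaled to 1000000 reads counted on genes. The values were whole steps from which library totals of 28470000 to 33990000 reads were fitted, and 3 reads, the floor used here, corresponded to 0.088 to 0.105 RPM. Every member stood above this floor in all 4 pools. The gene for chemerin itself, Rarres2, read 102.2 and 98.2 RPM in LLC and 105.9 and 105.8 RPM in LLC-Chem, with a log2 fold change of 0.08 (limma adjusted p = 0.541). Whether reads of the plasmid's chemerin were counted on this gene was not tested. The gene therefore gave no check of the labels, and every direction rests on them. Nothing states that the pools of a group came from separate experiments, and the p-values measure the spread between these pools.

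Among the 10 factors, 5 fell in the LLC-Chem pools, Erg, Fli1, Sox7, Sox18 and Lyl1, and none rose. Genes called lower made up 13.5% of the 13694 genes tested and genes called higher 9.54%. With TMM scaling these shares were 12.0% and 11.6%, and the count of factors that fell was 5 as well. With no filter on low values 0 of the 10 passed, and 6 were lower at an unadjusted p under 0.05, against 15.2% of genes. With a filter at a mean of 5 RPM 3 of the 6 left fell, against 13.4% of genes. The 5 factors that fell stood at 15.6% to 46.6% of their LLC mean. The other 5 did not pass the test. They were Sox17 and Tal1, at 25.0% and 37.4% of their LLC mean, Gata2 and Klf2, at 78.9% and 74.2%, and Ets1, at 136%. The median log2 fold change of the 10 factors was -1.25, against -0.04 for all genes tested. Both LLC-Chem pools were below both LLC pools for 8 of the 10 factors, an arrangement found in 39.3% of the genes tested, and both were above for Ets1 alone, as for 33.1% of genes. All 10 factors passed the filter of a mean of 1 RPM, but Sox7, Sox17 and Tal1 had an LLC-Chem mean below 1 RPM and passed through their LLC values. Of the 7 factors with both group means at 1 RPM or more, 4 fell, against 12.7% of the 13017 genes of that kind.

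**Figure D1:**
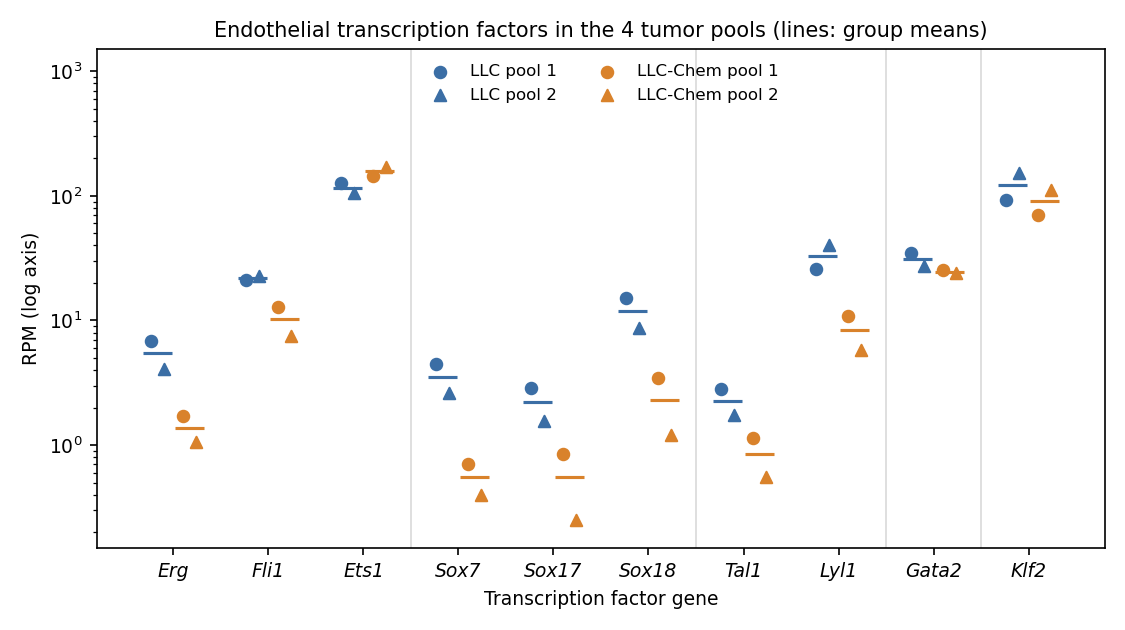
RPM (vertical axis, log scale) of each of the 10 factors (horizontal axis, grouped by family) in the 2 LLC and the 2 LLC-Chem pools, with points for pools and short lines for group means. The LLC-Chem points lie below both LLC points for every factor but Ets1, where they lie above, and Klf2, where the groups overlap.

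Calls rested on all 4 pools. With any 1 pool left out, 0 of the 13694 genes passed limma's adjusted threshold. At an unadjusted p under 0.05, 3 factors were lower without LLC pool 1, 7 without LLC pool 2, 7 without LLC-Chem pool 1 and 5 without LLC-Chem pool 2, against 7 with every pool. The shares of all genes lower in this way were 19.1%, 20.6%, 18.1% and 11.5% with a pool left out and 23.4% with every pool. The signs of all 10 differences stayed the same, and edgeR and DESeq2 were not run with a pool left out.

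Of the ETS factors, Erg and Fli1 fell and Ets1 was not called. Erg, which maintains VE-cadherin and endothelial junctions, lies at chr16:95359169-95586593 on the minus strand (ENSMUSG00000040732). Erg read 6.80 and 4.10 RPM in LLC and 1.70 and 1.05 RPM in LLC-Chem. Both LLC-Chem pools were below both LLC pools, and LLC pool 1 was the highest. Its mean went from 5.45 ± 1.91 to 1.37 ± 0.459 RPM (SD, n = 2 pools), a log2 fold change of -1.65 (SE 0.32, 95% interval -2.45 to -0.85, limma adjusted p = 0.0259). Fli1, the close relative of Erg that also serves megakaryocytes and other blood cells, lies at chr9:32422204-32542861 on the minus strand (ENSMUSG00000016087). Fli1 read 21.0 and 22.7 RPM in LLC and 12.8 and 7.55 RPM in LLC-Chem. The LLC pools were close together, and the groups did not overlap. Its log2 fold change was -1.11 (SE 0.26, 95% interval -1.75 to -0.47, limma adjusted p = 0.0365). The call was lost with no trend in the variance prior (limma adjusted p = 0.0557), with a replicate block (0.0571) and with no filter (0.143). Over the alternatives that kept all 4 pools, the adjusted p ranged from 0.00323 (DESeq2) to 0.143.

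Ets1, the founding ETS factor, induced in activated endothelium and in invasive cells, lies beside Fli1 at chr9:32636221-32757820 on the plus strand (ENSMUSG00000032035). Ets1 read 125.8 and 104.6 RPM in LLC and 143.0 and 170.8 RPM in LLC-Chem. The groups did not overlap, with both LLC-Chem pools above both LLC pools, opposite to its neighbor Fli1. The log2 fold change was 0.44 (SE 0.14, 95% interval 0.09 to 0.80), and limma did not call it (adjusted p = 0.073). DESeq2 on the recovered reads called it higher (adjusted p = 0.0229, range over the alternatives 0.0229 to 0.411), as it did 13.7% of genes. The intervals of Ets1 and of Erg and Fli1 do not overlap, though the difference between the genes was not tested.

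The 3 SOXF factors stood at 15.6% to 25.0% of their LLC mean, and Sox7 and Sox18 passed the test. Sox7 (ENSMUSG00000063060, chr14:63943673-63950732, plus strand), which acts early in vessel formation, read 4.45 and 2.60 RPM in LLC and 0.7 and 0.4 RPM in LLC-Chem. These values correspond to about 136, 73, 23 and 12 reads. Both LLC-Chem pools were far below both LLC pools, and the share of 15.6% was that of Sox7. Its log2 fold change was -1.91 (SE 0.32, 95% interval -2.72 to -1.11, limma adjusted p = 0.0198). Sox18 (ENSMUSG00000046470, chr2:181669836-181671640, minus strand), which acts in vessel integrity and lymphatic specification, read 15.2 and 8.75 RPM in LLC and 3.45 and 1.20 RPM in LLC-Chem. The groups did not overlap, and the pools within each group were spread widely. Its log2 fold change, -2.22, was the lowest of the 10 (SE 0.47, 95% interval -3.38 to -1.06, limma adjusted p = 0.03). Because 0.5 RPM was added before taking logs, the log2 fold changes of the lowest genes understate their change, and Sox18 was the most abundant SOXF factor. Sox7 was lower than Sox18 with a pseudocount of 0.1 (-2.47 against -2.44), edgeR (-2.69 against -2.33) and DESeq2 (-2.71 against -2.35).

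Sox17 (ENSMUSG00000025902, chr1:4490931-4497354, minus strand), an arterial factor, read 2.85 and 1.55 RPM in LLC and 0.85 and 0.25 RPM in LLC-Chem. The groups did not overlap, and the lowest pool rested on about 7 reads. With a log2 fold change of -1.38 (SE 0.40, 95% interval -2.38 to -0.38), Sox17 was not called by limma (adjusted p = 0.0588). DESeq2 on the recovered reads called it lower (adjusted p = 0.0462, range over the alternatives 0.0422 to 0.317), as it did 16.6% of genes. Of the exon bases of Sox17, 16.8% lie under Gm37587 on the other strand. That gene is listed at 0 RPM in all 4 pools, and whether counting used strand is not given in the sources used here. No exon base of Sox7 or Sox18 lies under another gene.

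The bHLH factors Tal1 and Lyl1, paralogs that bind DNA with E proteins, both had lower LLC-Chem values, and Lyl1 passed the test. Lyl1 (ENSMUSG00000034041, chr8:84701457-84704715, plus strand), which stabilizes new vessels and serves blood progenitors, read 25.7 and 40.7 RPM in LLC and 10.9 and 5.75 RPM in LLC-Chem. The lower LLC pool was still above both LLC-Chem pools. Its mean went from 33.2 ± 10.6 to 8.32 ± 3.64 RPM (SD, n = 2 pools), a log2 fold change of -1.96 (SE 0.35, 95% interval -2.83 to -1.09, limma adjusted p = 0.0222). Tal1 (ENSMUSG00000028717, chr4:115056426-115071755, plus strand), the master factor of blood and hemogenic endothelium, read 2.80 and 1.75 RPM in LLC and 1.15 and 0.55 RPM in LLC-Chem. The groups did not overlap, at about 85, 49, 38 and 17 reads. The log2 fold change was -1.05 (SE 0.34, 95% interval -1.89 to -0.21), and Tal1 was not called by limma (adjusted p = 0.0744) or under any alternative (0.0648 to 0.368).

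Gata2 and Klf2 had the values nearest to LLC among the factors below their LLC mean. Gata2 (ENSMUSG00000015053, chr6:88193891-88207032, plus strand), which binds with Tal1 and Ets factors at endothelial enhancers, read 35.1 and 27.6 RPM in LLC and 25.3 and 24.2 RPM in LLC-Chem. The groups did not overlap, but the lower LLC pool was near the LLC-Chem pools. Its log2 fold change was -0.33 (SE 0.15, 95% interval -0.71 to 0.05, limma adjusted p = 0.163). Klf2 (ENSMUSG00000055148, chr8:72319033-72321656, plus strand) read 92.3 and 153.6 RPM in LLC and 70.8 and 111.6 RPM in LLC-Chem. The groups overlapped, and the pools of each group lay far apart. Its log2 fold change was -0.42 (SE 0.31, 95% interval -1.18 to 0.35, limma adjusted p = 0.341), so that a difference of this size was within the spread between pools.

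**Figure D2:**
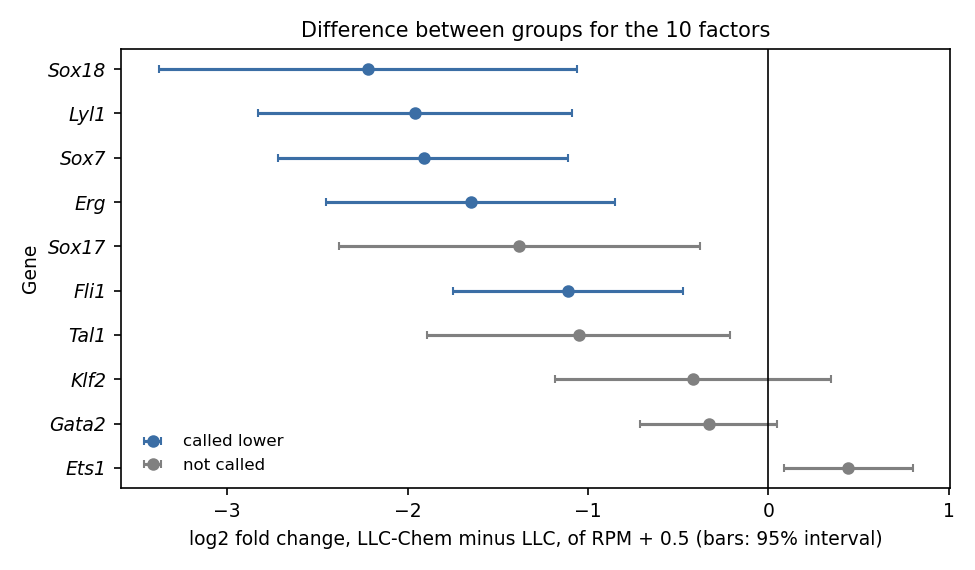
Log2 fold change of RPM + 0.5, LLC-Chem minus LLC (horizontal axis), of the 10 factors (vertical axis), with limma's 95% intervals as bars and the called factors in blue. Sox18, Lyl1, Sox7, Erg and Fli1 were called lower, and the intervals of Sox17 (-2.38 to -0.38) and Tal1 (-1.89 to -0.21) lie below 0 although neither passed the adjustment over all genes.

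Levels were compared between factors only per kilobase of annotated exon. In LLC, Klf2 was the most abundant factor at 66.5 RPM per kb (49.9 and 83.1 in the pools). Lyl1 at 18.4 and Ets1 at 13.6 RPM per kb came next and overlapped each other, and both were below Klf2 in every pool. Sox18, Fli1 and Gata2 followed at 7.40, 6.26 and 5.81 RPM per kb, and neighbors in this order overlapped. Erg at 1.57 and Sox7 at 1.07 RPM per kb overlapped each other and were below these 3, and Tal1 at 0.519 and Sox17 at 0.461 RPM per kb were the lowest and overlapped. Fli1 was thus the more abundant of the related factors Erg and Fli1, and Sox18 the most abundant of the SOXF factors, in both groups. In LLC-Chem, Klf2 remained first at 49.4 RPM per kb, and Ets1 came second at 18.5 RPM per kb. Lyl1 at 4.62 (3.19 to 6.05) and Gata2 at 4.58 RPM per kb (4.48 to 4.68) followed and overlapped, then Fli1 at 2.92, Sox18 at 1.43, Erg at 0.396, Tal1 at 0.194, Sox7 at 0.167 and Sox17 at 0.115 RPM per kb. Fli1 (2.16 to 3.67) overlapped Lyl1. Tal1 (0.126 to 0.262), Sox7 (0.121 to 0.212) and Sox17 (0.0524 to 0.178) overlapped one another, so their order is not resolved.

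The order of the 4 pools separated the factors into sets. Erg, Sox7, Sox17, Sox18, Tal1 and Gata2 were highest in LLC pool 1, followed by LLC pool 2, LLC-Chem pool 1 and LLC-Chem pool 2. This order was found in 16.1% of the genes tested, in 9 of 10 endothelial markers and in 4 of the 10 leukocyte markers tested. Fli1 and Lyl1 were highest in LLC pool 2, followed by LLC pool 1, LLC-Chem pool 1 and LLC-Chem pool 2, as were 13.8% of the genes tested, 1 endothelial marker and 6 of the 10 leukocyte markers tested. The LLC pools of Fli1 were close (21.0 and 22.7 RPM, about 646 and 645 reads), so its place in this order is uncertain. The pools share a library across genes, and these counts are descriptions without a test.

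Endothelial markers were lower in the same pools. The summed RPM of 10 markers (such as Pecam1, Cdh5 and Kdr) was 299.1 and 234.9 in LLC and 85.7 and 50.1 in LLC-Chem, 25.4% of the LLC level. Of these markers 8 fell, none rose and none was at 0, and their median log2 fold change was -2.06. For all genes tested the shares called were 13.5% lower and 9.54% higher. In these bulk samples, fewer endothelial cells and less RNA of a factor per endothelial cell cannot be told apart. Leukocyte markers, of cells that can also use Fli1, Lyl1 and Klf2, summed to 1509 and 2003 RPM in LLC and 1036 and 583.6 RPM in LLC-Chem (46.1%), and 7 of the 10 tested fell. Mast cell markers, of cells that can also use Gata2, summed to 102.0 and 42.2 RPM in LLC and 22.8 and 14.1 RPM in LLC-Chem, and 4 of 6 tested fell. Megakaryocyte markers, of cells that can also use Fli1 and Tal1, went from 408.1 and 383.0 RPM to 197.3 and 166.1 RPM, with 2 of 4 tested lower. Erythroid markers were at 90.7 and 36.3 RPM in LLC and at 115.9 and 3.7 RPM in LLC-Chem, with none of 3 called. Lymphocyte markers, of cells that can also use Ets1 and Klf2, were at 19.7 and 15.5 RPM against 3.85 and 1.2 RPM. Of 4 tested 3 fell, though all 4 were below 1 RPM in LLC-Chem and passed the filter through their LLC values. Mural markers stood at 27.1% of their LLC sum with 5 of 7 lower. The sum of 5 fibroblast markers stood at 48.0%, but their median log2 fold change was 0.72, with 2 lower and 1 higher, and 3 had both LLC-Chem pools above both LLC pools. Lymphatic markers stood at 141% with 2 lower and 1 higher of 3 tested, 1 of the 3 being below 1 RPM in LLC-Chem, and adipocyte markers at 112% with 1 of 3 higher. Keratinocyte markers had 0 of 1 tested called and muscle markers 1 of 1 higher, with Ckm and Myh4 at 0. The part of these cell types in the factors' values was not tested.

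Each factor was also set against the summed RPM of the 10 endothelial markers in the same pool. Erg was at 22.7 and 17.4 RPM per 1000 RPM of markers in LLC and at 19.8 and 20.9 in LLC-Chem. On this scale the groups overlapped, and the mean log2 difference was 0.03. Sox18 (51.0 and 37.2 against 40.2 and 23.9 RPM per 1000 RPM), Sox17 (9.52 and 6.60 against 9.91 and 4.99) and Lyl1 (86.0 and 173 against 127 and 115) overlapped as well. On the summed markers Sox7 alone was below LLC in both LLC-Chem pools, at 14.9 and 11.1 RPM per 1000 RPM in LLC and at 8.16 and 7.98 in LLC-Chem, a log2 difference of -0.67. Fli1, Ets1, Tal1, Gata2 and Klf2 were above LLC in both LLC-Chem pools on this scale. Fli1 was at 70.2 and 96.6 RPM per 1000 RPM of endothelial markers in LLC and at 149 and 151 in LLC-Chem, a log2 difference of 0.86. Ets1 was at 421 and 446 in LLC and at 1668 and 3408 in LLC-Chem (2.46), and Gata2 at 117 and 118 against 295 and 483 (1.68). Of the 10 factors, 5 were thus higher, 1 lower and 4 overlapping relative to the summed endothelial markers. The marker sum itself stood at 25.4% of its LLC level, so a gene that fell less tends to rise on this scale. The shares of all genes on it were not computed, and nothing particular to the factors is read from the counts. These counts depended on how the markers were combined. Against the mean of the markers' log2(RPM + 0.5), 7 factors were higher, none was lower and 3 overlapped. Erg was then above LLC in both LLC-Chem pools (log2 difference 0.31), as was Sox17 (0.58), and Sox7 overlapped (0.04). The median log2 difference of the 10 factors was 0.29 with the sum and 0.71 with the mean of log2 values.

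Relative to leukocyte markers the picture differed by factor. Fli1 was at 13.9 and 11.3 RPM per 1000 RPM of leukocyte markers in LLC and at 12.4 and 12.9 in LLC-Chem, with overlapping groups and a log2 difference of 0.01. Lyl1 was at 17.1 and 20.3 in LLC and at 10.5 and 9.85 in LLC-Chem, below LLC in both pools (-0.87). Erg (4.50 and 2.05 against 1.64 and 1.80) was lower too, as were Sox7 and Sox18, and Ets1 (83.3 and 52.3 against 138 and 293) and Gata2 (23.2 and 13.8 against 24.4 and 41.4) were higher. Gata2 was also higher relative to mast cell markers, at 344 and 654 RPM per 1000 RPM in LLC and 1110 and 1716 in LLC-Chem. These ratios are descriptions without a test, and the shares of all genes on these scales were not computed. An exact permutation test of 2 pools against 2 could not go below p = 0.33.

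**Figure D3:**
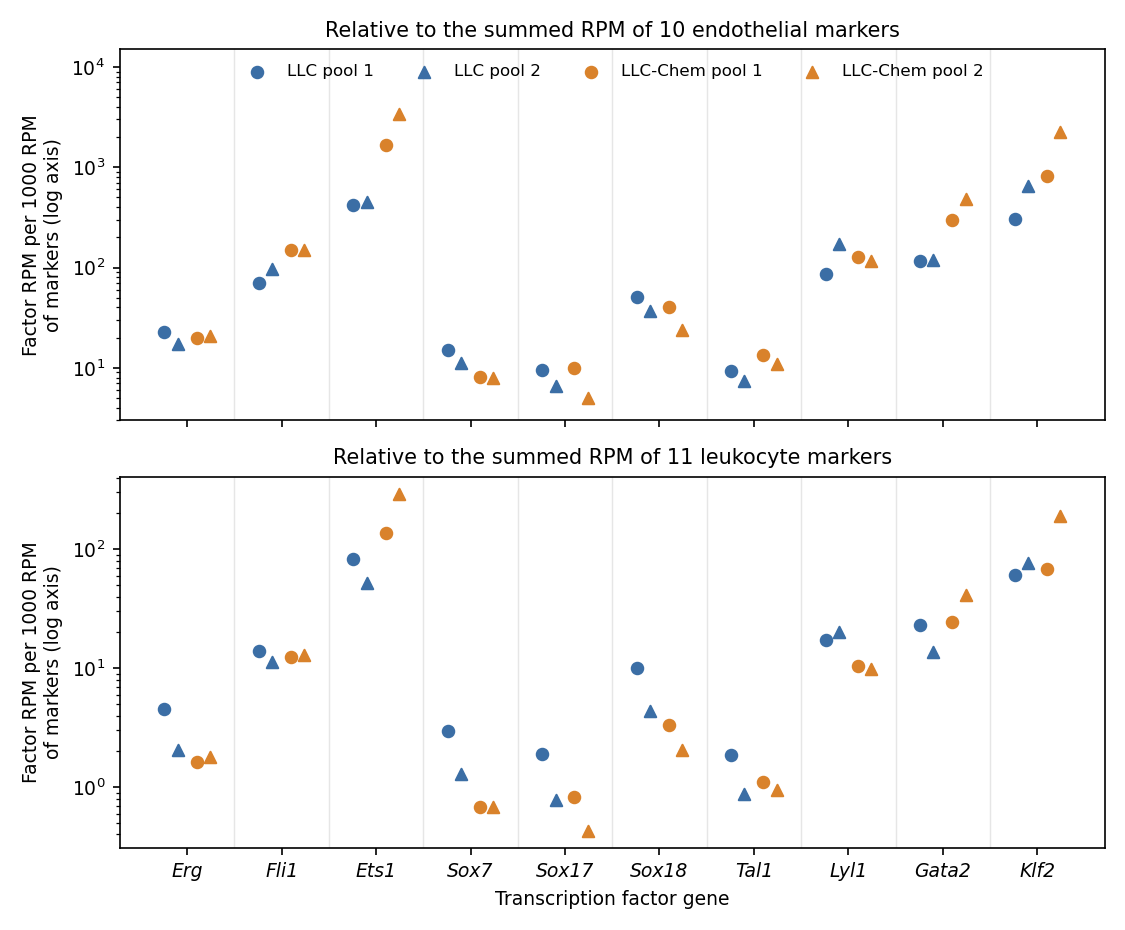
RPM of each factor per 1000 RPM of summed endothelial markers (upper panel) or leukocyte markers (lower panel), on log axes, in the 2 LLC and 2 LLC-Chem pools. Against these sums Erg overlaps between groups in the upper panel and Fli1 in the lower panel, and the LLC-Chem points of Ets1 and Gata2 lie above the LLC points in both.

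Other transcription factors and cofactors of endothelial cells moved in both directions. Of 37 such genes 32 were tested, and 6 fell, 7 rose and 19 were not called, with a median log2 fold change of -0.24. The shares of all genes were 13.5% lower and 9.54% higher, and nothing particular to this list is read from its counts. Etv2, Foxc2, Hey2, Prox1 and Tcf15 were too low to be tested. Epas1, the HIF-2 alpha subunit abundant in endothelium, was at 31.7 and 19.7 RPM in LLC and 9.64 and 6.95 RPM in LLC-Chem (log2 fold change -1.56, limma adjusted p = 0.0222). Bcl6b, an endothelial repressor, was at 7.55 and 5.15 against 2.40 and 0.80 RPM (-1.80, adjusted p = 0.0382), and Meox2, a homeobox factor of vessels, at 8.15 and 8.65 against 2.55 and 1.80 RPM (-1.75, adjusted p = 0.013). In each of these 3 both LLC-Chem pools were below both LLC pools. Heyl, a Notch effector (-1.67), Ldb2, the LIM-domain binding partner (-1.37), and Hhex, a homeobox factor of blood and vessel progenitors (-1.35), fell too. Heyl was below 1 RPM in LLC-Chem and passed the filter through its LLC values. Of the 29 factors with both group means at 1 RPM or more, 5 fell, against 12.7% of the genes of that kind.

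Some of the factors that rose are also used outside vessels, as are Hhex, Fli1 and Lyl1, which fell. Foxc1, a forkhead factor of mesenchyme and vessels, was at 4.80 and 3.55 RPM in LLC and 12.8 and 12.5 RPM in LLC-Chem (log2 fold change 1.51, limma adjusted p = 0.0136). Mecom, which acts in arterial endothelium, blood stem cells and epithelium, was at 17.8 and 13.6 against 37.1 and 42.4 RPM (1.32, adjusted p = 0.0134). Id3 (0.97), Foxf1 (0.97), Tcf12 (0.84) and the venous factor Nr2f2 (0.83) also rose. None of these groups overlapped. Among partners of Tal1 and Lyl1, Tcf12 and Ldb1 rose, Ldb2 fell, and 4 of the 7 tested (Lmo2, Cbfa2t3, Tcf3 and Runx1) were not called. None of the 6 other ETS genes tested (Etv6, Ets2, Elk3, Elf1, Elf2 and Elf4) was called, and neither Gata3, Gata6 nor Klf4 was.

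**Figure D4:**
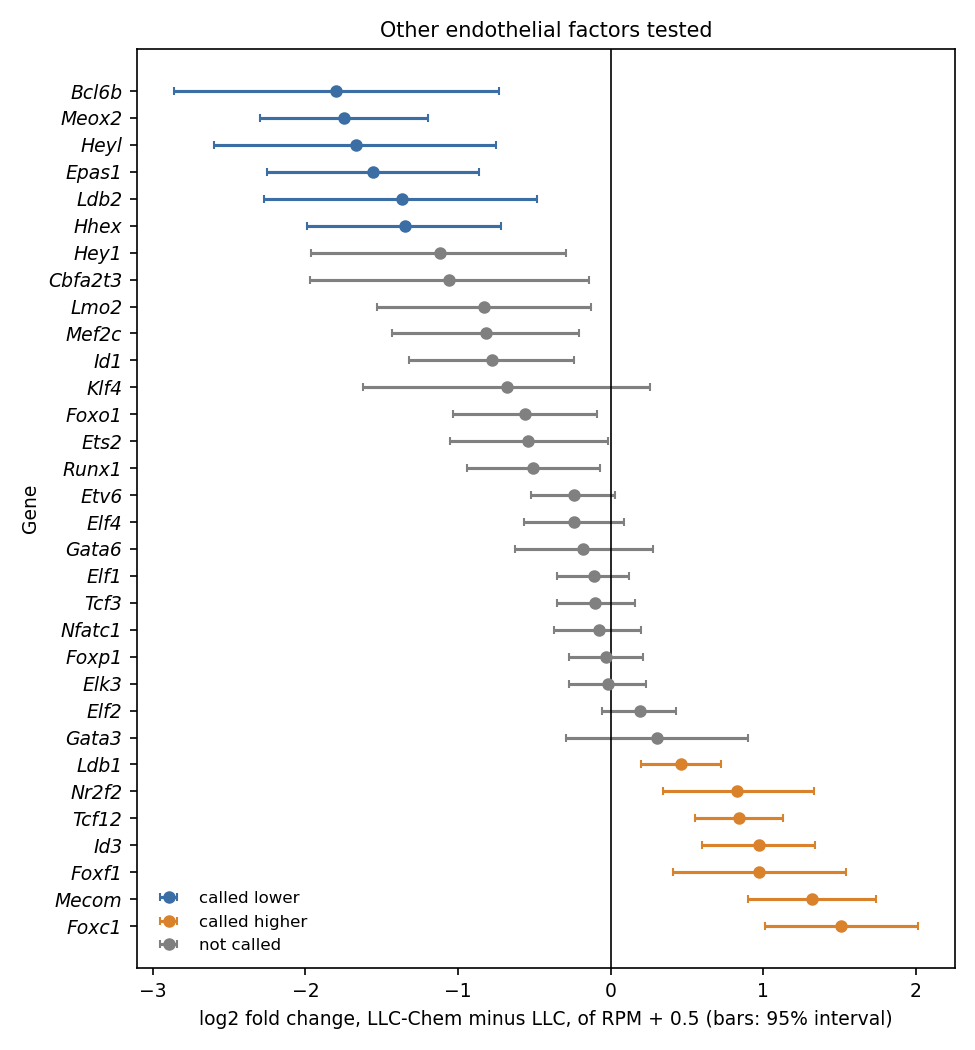
Log2 fold change of RPM + 0.5, LLC-Chem minus LLC (horizontal axis), of the 32 other endothelial factors tested (vertical axis), with limma's 95% intervals as bars. The 6 factors called lower (blue, -1.80 to -1.35) lie at the top, the 7 called higher (orange) at the bottom and the 19 not called between them.

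Genes that these factors are known to bind or drive in endothelium were examined beside them. Of 25 such target genes, all tested, 16 fell, none rose and 9 were not called, with a median log2 fold change of -1.56. Of all genes tested, 13.5% were called lower and 9.54% higher. Flt4 and Nos3 fell but were below 1 RPM in LLC-Chem. Of the 23 targets with both group means at 1 RPM or more, 14 fell, against 12.7% of the 13017 genes of that kind. Of the 25, 7 are also among the endothelial markers above and are not separate evidence. Cdh5, VE-cadherin and a target of Erg, was at 51.3 and 34.1 RPM in LLC and 9.84 and 5.25 RPM in LLC-Chem (-2.46, limma adjusted p = 0.0141). Kdr, the VEGF receptor driven by ETS, SOXF and GATA sites, was at 35.2 and 33.2 against 9.04 and 6.40 RPM (-2.10, adjusted p = 0.0093). The orphan receptor Tie1 (-2.40), the guidance receptor Robo4 (-2.28), the apelin receptor Aplnr (-2.21) and the adhesion molecule Icam2 (-1.96) fell as well. The 9 targets not called included Dll4 (22.2% of its LLC mean, limma adjusted p = 0.0521), Tek (36.3%, adjusted p = 0.0542) and Egfl7 (49.4%, adjusted p = 0.0713), for each of which both LLC-Chem pools were below both LLC pools. That arrangement was found in 39.3% of the genes tested. Also not called were Eng (116.4 and 115.8 against 112.8 and 108.0 RPM), Thbd (70.4 and 124.7 against 81.7 and 57.1 RPM), Flt1, Efnb2, Nrp1 and Apln. These 9 were named after their values were seen.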

How the data were processed

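RNA from 4 pools of 3 tumors each (2 LLC, 2 LLC-Chem) was sequenced. Per the study's methods and the submitters' processing notes, the authors aligned both ends of each fragment to GRCm38.p4 (mm10) with STAR, obtained gene counts with HTSeq and deposited RPM for 47729 genes. Tool versions and the strand setting are not given in the sources used here. The authors' counts were tested with edgeR in the study. Within 0.0001 RPM, 100% of the deposited RPM were whole steps of 0.04997 RPM, as after scaling each library to 20000000 reads. Totals were fitted to the nearest 1000 reads, and a step then stands for 1.42 to 1.70 reads, so that recovered reads are approximate by about 1 read per gene. Recovered reads and floors cover counting error only.

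Groups came from the sample labels. Genes averaging 1 RPM or more over the pools (13694) were tested on log2(RPM + 0.5) by limma 3.58.1 under R 4.3.3, with a trended variance prior. Tests were two-sided, p-values were adjusted by Benjamini-Hochberg across all these genes, and calls were made at an adjusted p under 0.05. The script was tested on simulated data with the same dispersion for every gene, which need not match the spread between these pools. On the recovered reads, edgeR 4.0.16 (quasi-likelihood) called 3171 genes and DESeq2 1.42.0 called 4144. Other alternatives were pseudocounts of 0.1 and 1, TMM and median-of-ratios scaling, other filters, no trend, a replicate block and each pool left out.

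Exon lengths and positions came from GENCODE M21 (GRCm38), which held 98.9% of the gene IDs, and promoters from RefSeq (GRCm38.p6). The members and all gene lists were chosen with earlier results of these data known. Genes named were all members, of the other factors and targets the called genes with at most the 6 lowest and 6 highest log2 fold changes, markers at 0, and the 5 genes nearest to Erg, except that some items are not reported here. Other genes were named after their values were seen. Values were summarized with Python 3.11.15, pandas 2.3.3, numpy 2.4.6 and matplotlib 3.10.9.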

Additional observations from a re-analysis of the deposited data

How the results depend on the processing

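Over the alternatives, 146 values of single factors were computed, of which 115 kept their direction and side of the threshold, 27 lost the call, 4 gained one and 0 reversed. With no filter on low values (26260 genes tested), limma called 1 gene in all and 0 of the 10 factors, the other factors, the target genes or the markers lower, against 3154 genes, 5 factors, 6 other factors, 16 targets and 8 markers as reported. At an unadjusted p under 0.05, 4003 genes (15.2%) and 6 of the 10 factors were lower there. A filter at a mean of 5 RPM left 6 of the 10 factors, of which 3 were called lower, and called 3 of 27 other factors lower, against 13.4% of all genes there. DESeq2 called 10 of the 32 other factors lower, against 16.6% of all genes. A crossed pairing of pool numbers, added after seeing the data, called 10 as well, against 16.9% of all genes. A replicate block in the fit called 1613 genes in either direction (1064 lower, 7.77% of those tested, and 549 higher). It called lower 5 factors, 5 other factors, 18 targets and 9 markers, with Fli1 lost (limma adjusted p = 0.0571) and Sox17 gained (0.0422). Deviations of same-numbered pools correlated at -0.1405 over the 13694 genes, and nothing states a pairing. Leaving out 1 pool gave counts from 0 to 0 for all genes, the 10 factors, the other factors, the targets and the markers, and the lone pool was then assumed to vary like the other group. Relative to endothelial markers, the median log2 difference of the 10 factors was 0.29 with the summed markers and 0.71 with the mean of the markers' log2 values. The median of all genes was -0.043 as deposited, 0.003 with TMM and -0.007 with median-of-ratios scaling. With 2 pools a group, the spread between pools limits every call, and Sox7, Sox17 and Tal1 also rest on few reads in LLC-Chem.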

Other observations

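The tested genes with a profile over the 4 pools most like that of Erg, by Euclidean distance between centred log2(RPM + 0.5) values, included Cxcl9, Plvap, Epas1 and Stap1, at distances of 0.068 to 0.113 among 13684 genes ranked, whose median distance was 1.73. Plvap, which forms the diaphragms of endothelial fenestrae, was at 58.8 and 40.0 RPM in LLC and at 18.2 and 12.6 RPM in LLC-Chem. Cxcl9, an interferon-induced chemokine, was at 8.55 and 5.45 RPM in LLC and at 2.35 and 1.55 RPM in LLC-Chem. Stap1, an adaptor of hematopoietic cells, was at 7.15 and 4.75 RPM against 2.05 and 1.20 RPM. In each of these genes LLC pool 1 was highest and LLC-Chem pool 2 lowest, which follows from their choice by closeness to Erg. The order of the 4 pools seen for Erg was found in 16.1% of the genes tested. With 4 points a profile, the order of the nearest genes is a description only.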
